A study of Mus musculus with 16 samples.

Results

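The annexin genes described here were Anxa1, Anxa2, Anxa3, Anxa4, Anxa5, Anxa6, Anxa7, Anxa8, Anxa9 and Anxa11, which are 10 of the 55536 genes in the count table. They were chosen by name as members of 1 protein family, with the rise of Anxa8 under doxycycline (DOX) at both passages already known. The DOX values below are therefore a description, while the passage values were tested. The difference of DOX responses was tested too, but for Anxa8 it is built from responses known beforehand and is a description. All 10 had counts high enough to be among the 15316 genes tested.

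Annexins are cytosolic proteins that bind negatively charged membrane lipids when calcium rises, through a conserved core of repeats. Their variable tails bind partners such as S100 proteins, and through these contacts they link membranes to actin, tether vesicles and patch wounds of the plasma membrane. In tubule epithelium they are found beneath the cell membranes and on endosomes.

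The cells were an inner medullary collecting duct line, an epithelium from the end of the kidney tubule, in which DOX induces the knockout of Pkd2. This gene encodes polycystin-2, a calcium-permeable channel of the cilium and the endoplasmic reticulum whose loss causes cysts. Poly(A) RNA was sequenced in 4 groups of 4 libraries: passage 7 with DOX, passage 7 without DOX, passage 4 with DOX and passage 4 without DOX. All cells stood on permeable filters for 10 days, and DOX was given at 2 ug/mL for 6 days or left out. The titles call all 16 libraries Pkd2KO cells, whereas the genotype label reads wild type without DOX and knockout with it, so the controls are uninduced cells of the same line. DOX and the knockout were compared as one, since no group with DOX but an intact Pkd2 is labelled. The labels name 1 cell line and do not say how DOX induces the deletion, nor that replicates came from separate cultures, so the spread behind the p-values may be technical.

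Total counts ranged from 9937504 to 17188295 per library. Pkd2 was at 47.6 to 65.9 CPM (counts scaled to library size by TMM) at passage 7 with DOX, against 184 to 187 CPM without DOX, and 30.6% of its mean was left. Its passage 4 level was 47.8 to 57.4 CPM with DOX, against 135 to 145 CPM without DOX, and 37.6% was left (exact 2-sided permutation p = 0.0286 at each passage, n = 4 each, the smallest that 70 arrangements allow). The headers of the deposited TPM table went against those of the count table for 12 of 16 libraries. Pkd2 decided for the count headers, so it is no separate check of them. Of 15 principal cell markers 11 were tested, but Aqp2, which encodes the vasopressin-regulated water channel, was at 0 in every library.

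The promoters of Anxa8, Anxa2 and Anxa1 are printed as examples: Anxa8 differed most between groups, Anxa2 was higher with DOX and Anxa1 was lower. Averaged over passages, the log2 fold changes with DOX of Anxa6 (-0.69) and Anxa5 (-0.36) were further below 0 than that of Anxa1 (-0.29). RefSeq promoters (GRCm38.p6) were matched for 8 of the 10 genes, and those of Anxa3 and Anxa6 were not. Each window holds 250 bases before and 50 bases from the annotated start, and reads 5′ to 3′ along the gene. Capitals mark matches, on either strand, to 6 motifs, each given with the share of all 32851 promoters of this length that hold it. The TATA box was searched as TATAAA, which 13.6% of promoters hold. The GC box was searched as GGGCGG, held by 35.7%. The AP-1 motif was searched as TGANTCA, held by 7.8%. The motif of ATF4 and C/EBP was searched as TGATGNAA, held by 4.0%. The TEAD motif was searched as GGAATG, held by 14.7%. The E-box was searched as CACGTG, held by 7.2%. The motifs do not overlap one another in these 3 windows. Anxa8 lies at chr14:34085729-34086028 on the plus strand, Anxa2 at chr9:69453433-69453732 on the plus strand, and Anxa1 at chr19:20390622-20390921 on the minus strand.
Anxa8: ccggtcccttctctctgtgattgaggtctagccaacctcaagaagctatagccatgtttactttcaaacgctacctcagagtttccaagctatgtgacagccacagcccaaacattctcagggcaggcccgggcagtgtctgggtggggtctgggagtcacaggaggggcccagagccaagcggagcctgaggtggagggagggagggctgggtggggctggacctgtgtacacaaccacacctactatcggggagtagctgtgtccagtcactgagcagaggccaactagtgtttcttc
Anxa2: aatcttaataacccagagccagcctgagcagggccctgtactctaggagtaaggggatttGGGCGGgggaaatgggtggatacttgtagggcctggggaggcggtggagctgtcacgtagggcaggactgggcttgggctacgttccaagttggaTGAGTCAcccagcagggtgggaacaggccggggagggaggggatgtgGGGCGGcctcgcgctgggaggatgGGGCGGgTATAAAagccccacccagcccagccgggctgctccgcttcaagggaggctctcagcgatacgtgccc
Anxa1: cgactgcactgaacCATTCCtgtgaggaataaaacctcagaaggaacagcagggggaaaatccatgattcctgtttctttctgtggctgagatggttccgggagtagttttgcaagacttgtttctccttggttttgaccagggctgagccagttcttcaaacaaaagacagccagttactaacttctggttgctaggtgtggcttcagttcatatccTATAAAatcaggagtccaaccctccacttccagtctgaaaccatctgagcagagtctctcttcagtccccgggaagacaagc

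The Anxa8 window held none of the 6 motifs, which says only that these letters are not in it. The Anxa2 window held a TATA box, GC boxes at 3 places and an AP-1 motif, which matches on both strands and begins 95 bases before the start. The Anxa1 window held a TATA box and a TEAD motif on the other strand, printed there as CATTCC. These matches are descriptions of letters and not binding sites. The GC content was 57.3% for Anxa8, 63.7% for Anxa2 and 47.3% for Anxa1, against a median of 52.7% over all promoters.

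Anxa8 (ENSMUSG00000021950, chromosome 14, 34085981 to 34100571, plus strand, GRCm38) encodes an annexin of late endosomes that is otherwise known from squamous epithelia. Its level separated 3 tiers of libraries. At passage 7 with DOX it was at 43.4, 42.9, 40.7 and 45.0 CPM, against 9.39, 13.8, 9.88 and 10.2 CPM at passage 7 without DOX. The fitted log2 fold change for DOX was 1.99 (SE 0.10), or 3.97-fold, and no library without DOX came near those with it. At passage 4 with DOX it was at 11.01, 9.88, 10.7 and 11.4 CPM, against 4.06, 3.62, 3.20 and 3.44 CPM at passage 4 without DOX. Here the log2 fold change was 1.59 (SE 0.13), or 3.01-fold, again with no overlap. Of all tested genes, 12.4% lay wholly above with DOX and 12.8% wholly below at passage 7. At passage 4 these shares were 10.3% and 11%. The DOX values of Anxa8 are part of what the choice of genes rested on and carry no test.

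The passage was not part of that choice. Without DOX, Anxa8 rose to a mean of 10.8 ± 2.00 CPM at passage 7, against 3.58 ± 0.37 CPM at passage 4 (SD, n = 4 each). The log2 fold change was 1.60 (SE 0.13, adjusted p = 8.1e-08 by the quasi-likelihood test of edgeR, Benjamini-Hochberg adjusted), and all 4 libraries of passage 7 lay above all 4 of passage 4. With DOX, it rose to a mean of 43.0 ± 1.74 CPM at passage 7, against 10.8 ± 0.65 CPM at passage 4. That log2 fold change was 2.00 (SE 0.10, edgeR adjusted p = 2.9e-10), also with no overlap. Of all tested genes, 14.6% lay wholly above at passage 7 and 12.3% wholly below without DOX. With DOX these shares were 17.5% and 14.9%. The DOX and passage comparisons share libraries, so their sizes are not independent. The levels at passage 4 with DOX and passage 7 without DOX overlapped, and the ratio of their means was 0.995. From the lowest group to the highest, the mean at passage 7 with DOX was 12-fold that at passage 4 without DOX. The DOX response was 0.40 larger on the log2 scale at passage 7 than at passage 4 (SE 0.17), and this difference was not called. It is built from the DOX responses known at the choice, so for Anxa8 it is a description.

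Anxa8 is nevertheless a minor annexin by transcript number. It was counted 493 to 708 times per library at passage 7 with DOX, against 102 to 174 times without DOX. At passage 4 it was counted 125 to 168 times with DOX, against 44 to 49 times without, so its lowest levels have the widest counting error. A gene on the opposite strand at the locus, A630023A22Rik, is annotated as protein coding. It had 0 or 1 counts and shares no exon base with Anxa8. No 75-base window of the Anxa8 transcripts recurs in another gene. TPM computed from the deposited counts and exon lengths gave the share of Anxa8 in the summed annexin transcripts. That share was 1.38 to 1.53% at passage 7 with DOX, against 0.291 to 0.427% without DOX. The passage 4 share was 0.405 to 0.454% with DOX, against 0.116 to 0.150% without. RNA from whole cultures cannot tell a change in the number of cells that express a gene from a change in RNA per cell.

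The other members are spread over the genome. On GRCm38, Anxa5 and Anxa9 lie on chromosome 3, Anxa3 on chromosome 5, Anxa4 on chromosome 6, Anxa2 on chromosome 9, Anxa6 on chromosome 11 and Anxa1 on chromosome 19. Anxa7 (20455260 to 20480133) and Anxa11 (25842156 to 25886804) share chromosome 14 with Anxa8 but not its neighbourhood, and all 10 are annotated as protein coding.

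**Figure D1:**
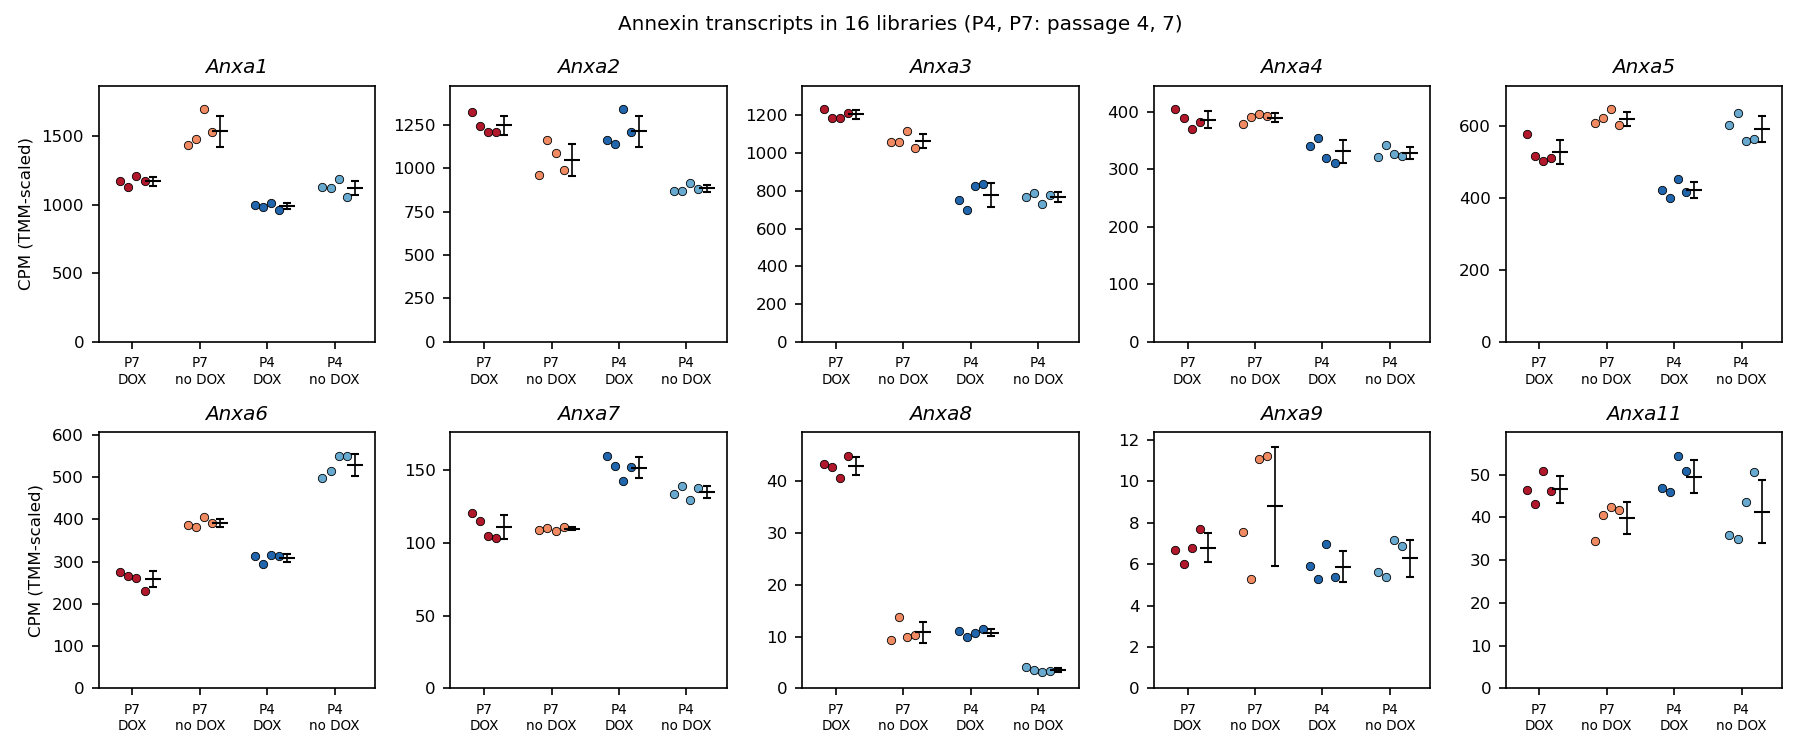
CPM (counts scaled to library size by TMM, linear axis from 0) of the 10 annexin genes in each of 16 libraries, with points for single libraries and a bar for the mean ± SD of 4. Anxa8 at passage 7 with DOX (40.7 to 45.0 CPM) stands above the other 3 groups, and Anxa6 is lower with DOX at both passages.

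Among all 10 genes, 3 were called higher and 3 lower with DOX at passage 7, where 11.1% of all tested genes were called higher and 11.6% lower. At passage 4 they were also 3 higher and 3 lower, against 8.45% of all tested genes higher and 9.1% lower. As DOX responses entered the choice of these genes, nothing is read from those counts. The median log2 fold change of the 10 was 0.00 at passage 7 and 0.02 at passage 4, against -0.01 and 0.00 over all tested genes. As a description only, Anxa2 and Anxa8 were called higher and Anxa1, Anxa5 and Anxa6 lower at both passages. Anxa3 was called higher at passage 7 and Anxa7 at passage 4.

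**Figure D2:**
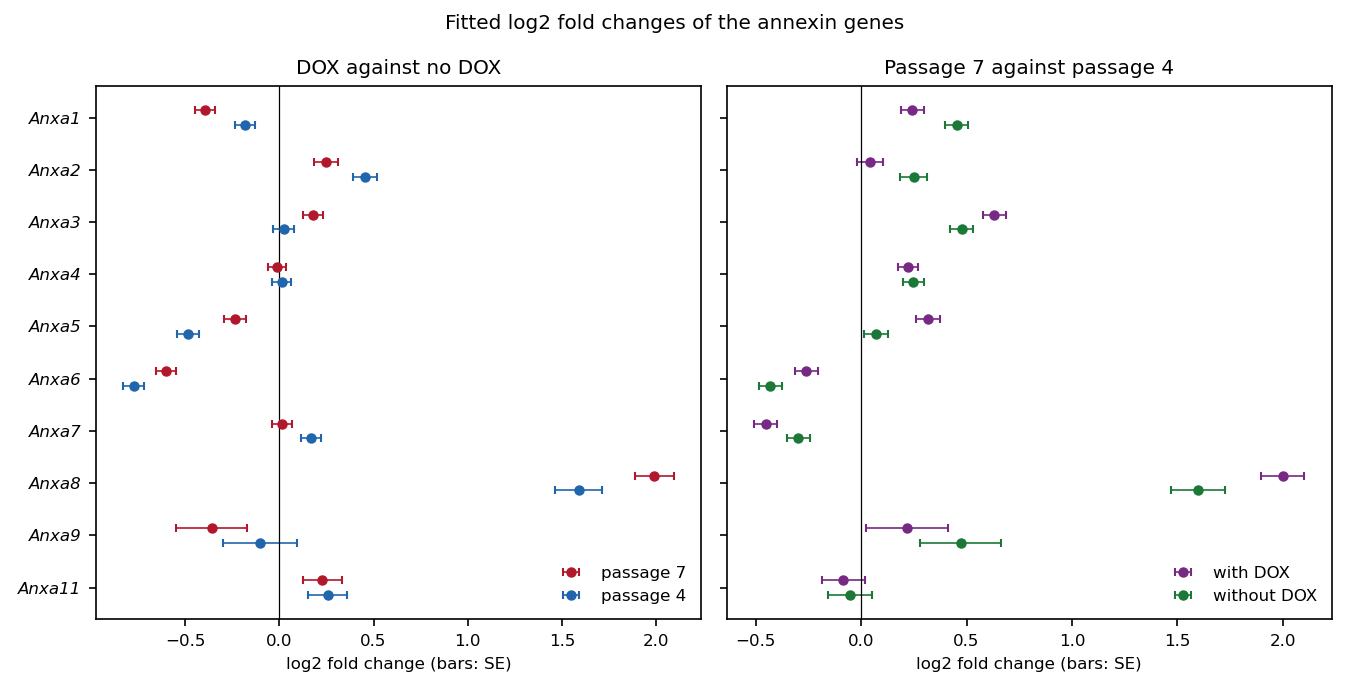
Fitted log2 fold changes with their SE (horizontal axis) for each annexin gene, DOX against no DOX at passages 7 and 4 on the left and passage 7 against passage 4 with and without DOX on the right. Anxa8 lies between 1.59 and 2.00 in all 4 comparisons, Anxa6 below 0 in all 4, and the remaining values lie between -0.48 and 0.63.

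The annexins of the cell surface that bind S100 proteins moved in different directions with DOX. Anxa2, whose protein pairs with S100a10 into a complex that bundles membranes and binds plasminogen activator, was at 1326, 1244, 1212 and 1211 CPM at passage 7 with DOX, against 964, 1164, 1088 and 988 CPM without DOX. Its log2 fold change was 0.25 (SE 0.06), and all libraries with DOX were the higher ones. The passage 4 levels of Anxa2 were 1161, 1140, 1341 and 1211 CPM with DOX, against 872, 868, 914 and 883 CPM without DOX, a wider gap with a log2 fold change of 0.46 (SE 0.06). Anxa1, a glucocorticoid-induced annexin with anti-inflammatory actions, was at 1170, 1128, 1205 and 1173 CPM at passage 7 with DOX, against 1437, 1481, 1695 and 1528 CPM without DOX. Its log2 fold change was -0.39 (SE 0.05) and the groups did not overlap. The passage 4 levels of Anxa1 were 1000, 981, 1010 and 961 CPM with DOX, against 1128, 1120, 1185 and 1054 CPM without DOX, a log2 fold change of -0.18 (SE 0.05). The lowest of those 4 libraries without DOX still lay above the highest with DOX, though by a small margin. Leaving out 1 of 3 single libraries at passage 4 ended the call of Anxa1 there.

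Anxa5 and Anxa6, which coat phosphatidylserine-rich membranes, were both lower with DOX. Anxa6, the largest annexin with a duplicated core and a role in endosomal cholesterol traffic, had the strongest decrease of the 10. It was at 276, 266, 260 and 231 CPM at passage 7 with DOX, against 387, 383, 406 and 392 CPM without DOX, a log2 fold change of -0.60 (SE 0.05). The passage 4 levels of Anxa6 were 313, 295, 317 and 313 CPM with DOX, against 499, 515, 551 and 549 CPM without DOX, a log2 fold change of -0.77 (SE 0.05). The DOX and no DOX libraries of Anxa6 were far apart at both passages. Anxa5, which forms a protective lattice on exposed phosphatidylserine, was at 576, 516, 503 and 510 CPM at passage 7 with DOX, against 608, 621, 646 and 603 CPM without DOX. The log2 fold change was -0.24 (SE 0.06), with a narrow gap between the groups. At passage 4 Anxa5 was at 421, 400, 452 and 415 CPM with DOX, against 601, 636, 558 and 565 CPM without DOX, a log2 fold change of -0.48 (SE 0.06) and a clear gap.

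Of the other 5 annexins, Anxa3, Anxa7 and Anxa4 differed little with DOX. Anxa3, which aggregates secretory granules, was at 1187 to 1233 CPM at passage 7 with DOX, against 1026 to 1116 CPM without DOX (log2 fold change 0.18, SE 0.05). At passage 4 Anxa3 was at 698 to 835 CPM with DOX, against 729 to 788 CPM without DOX (0.02, SE 0.05), so the groups overlapped there. Its call at passage 7 was lost when any 1 of 5 single libraries was left out. Anxa7, known for vesicle fusion and for binding sorcin, was at 104 to 121 CPM at passage 7 with DOX, against 108 to 111 CPM without DOX (0.01, SE 0.05). At passage 4 Anxa7 was at 142 to 160 CPM with DOX, against 129 to 139 CPM without DOX (0.17, SE 0.05). That call of Anxa7 was lost without any 1 of 6 single libraries, and when no filter on low counts was used. Anxa4, an epithelial annexin that lies along the plasma membrane, had log2 fold changes of -0.01 at passage 7 and 0.01 at passage 4 (SE 0.05 each), with overlapping libraries.

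Anxa11 and Anxa9 are the least certain of the 10. Anxa11, which ties RNA granules to lysosomes and binds S100a6, had log2 fold changes of 0.23 at passage 7 and 0.26 at passage 4 (SE 0.10 each), and neither was called. With the replicate number as a block the values were 0.22 and 0.27, and both were called. Exons of Anxa11 overlap the antisense gene Anxa11os over 113 bases, and 14.94% of its 75-base windows recur in Anxa11os, Gm2260 or Gm2274. Whether the reads were counted by strand is not given, so part of its counts may belong to those genes. Anxa11os itself had 0.26 (SE 0.13) at passage 7 and 0.27 (SE 0.13) at passage 4. Anxa9, an annexin whose core has lost its calcium-binding residues, was counted only 67 to 138 times per library. Its log2 fold changes with DOX were -0.36 at passage 7 (SE 0.19) and -0.10 at passage 4 (SE 0.20), with overlapping libraries, and its exons overlap the more highly counted Mindy1 over 71 bases.

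The question of the passage comparison is which annexins differed between passage 7 and passage 4 in the same DOX state. Without DOX, 5 of the 10 were called higher at passage 7 and 2 lower, where 14.3% of all tested genes were called higher and 11.3% lower. With DOX, again 5 were called higher and 2 lower, where 18.3% were called higher and 15.8% lower. The median log2 fold change of the 10 was 0.25 without DOX and 0.22 with DOX, against -0.01 in each case over all tested genes. Abundant genes are called more often. Among the 2539 tested genes with a mean of at least 100 CPM, 20.3% were called higher and 14.5% lower without DOX, and 24.3% higher and 19.9% lower with DOX. Of the 7 annexins in that class, 4 were called higher and 2 lower in each of the DOX states. These counts describe a list chosen by name and are not a test of the list.

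Anxa3, Anxa4 and Anxa1 rose with passage in both DOX states. Anxa3 was at 1058, 1061, 1116 and 1026 CPM at passage 7 without DOX, against 769, 788, 729 and 779 CPM at passage 4. Its log2 fold change was 0.48 (SE 0.05, edgeR adjusted p = 6.3e-06). With DOX the rise of Anxa3 was 0.63 (SE 0.05, edgeR adjusted p = 1.3e-07), and in both DOX states every library of passage 7 exceeded every library of passage 4. Anxa1 rose by 0.45 without DOX (SE 0.05, edgeR adjusted p = 7.4e-06) and by 0.24 with DOX (SE 0.05, edgeR adjusted p = 0.0016). Anxa4 was at 378 to 397 CPM at passage 7 without DOX, against 322 to 343 CPM at passage 4, a rise of 0.25 (SE 0.05, edgeR adjusted p = 0.0012). With DOX it was at 370 to 404 CPM at passage 7, against 310 to 354 CPM at passage 4, a rise of 0.22 (SE 0.05, edgeR adjusted p = 0.0017). Anxa4 thus had passage differences of similar size in both DOX states beside DOX values near 0.

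Anxa6 and Anxa7 fell with passage in both DOX states. Anxa6 had a mean of 392 ± 9.85 CPM at passage 7 without DOX, against 529 ± 25.9 CPM at passage 4 (SD, n = 4 each). Its log2 fold change was -0.43 (SE 0.05, edgeR adjusted p = 1.5e-05), and with DOX it was -0.26 (SE 0.05, edgeR adjusted p = 0.0011). Of the 4 groups, passage 7 with DOX had the lowest Anxa6 mean, 258 CPM, and the highest Anxa8 mean. Anxa7 had a mean of 110 ± 1.15 CPM at passage 7 without DOX, against 135 ± 4.28 CPM at passage 4. That log2 fold change was -0.30 (SE 0.05, edgeR adjusted p = 0.00058), and with DOX it was -0.45 (SE 0.05, edgeR adjusted p = 4.9e-06). No libraries overlapped between passages for either gene, beside 12.3% of all tested genes wholly below without DOX and 14.9% with DOX.

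Anxa2 and Anxa5 passed the passage test in 1 DOX state each. Anxa2 rose by 0.25 without DOX (SE 0.06, edgeR adjusted p = 0.0069), and its value with DOX was 0.04 (SE 0.06, edgeR adjusted p = 0.657). Anxa5 rose by 0.32 with DOX (SE 0.06, edgeR adjusted p = 0.0003), and its value without DOX was 0.07 (SE 0.06, edgeR adjusted p = 0.395). The difference between the DOX states did not pass its own test for either gene in the fit without pairs, with -0.21 for Anxa2 (SE 0.09, edgeR adjusted p = 0.355) and 0.25 for Anxa5 (SE 0.08, edgeR adjusted p = 0.173, or 0.042 with a term for the pairs of replicates, which made it a call). Anxa9 had a value of 0.47 without DOX (SE 0.19, edgeR adjusted p = 0.079) that the replicate block turned into a call (0.46, adjusted p = 0.014). Leaving out replicate 2 of passage 7 without DOX, the lowest of its group at 5.30 CPM against 7.54 to 11.2 CPM in the others, also gave a call for Anxa9 (0.65, edgeR adjusted p = 0.008). Anxa11 had -0.05 without DOX and -0.09 with DOX (SE 0.10 each, edgeR adjusted p = 0.745 and 0.562).

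No annexin passed the test of a difference in DOX response between passages by edgeR, where 0.516% of all tested genes were called higher and 0.679% lower. At an unadjusted p under 0.05 there were 5 of the 10. The share of all tested genes at that looser threshold was not computed, so nothing is read from this count. DESeq2 called 0 of the 10. With the replicate block edgeR called 287 genes of all tested higher and 428 lower, against 79 and 104 without it, and again no annexin. With a term for the pairs of replicates it called 1 annexin, Anxa5 (0.25, edgeR adjusted p = 0.042), whose difference was 0.42 in replicates 1 and 2 and 0.07 in replicates 3 and 4. The largest differences were 0.40 for Anxa8 and 0.25 for Anxa5 upward, and -0.26 for Anxa9 (SE 0.27) and -0.21 for Anxa1 (SE 0.07, edgeR adjusted p = 0.234) downward. A miss of the threshold does not show that the responses were alike.

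Per transcript length, the annexins spanned a wide range of levels. Computed TPM placed Anxa1 first in all 4 groups, with means of 1332 TPM at passage 7 with DOX, 1818 TPM at passage 7 without DOX, 1128 TPM at passage 4 with DOX and 1338 TPM at passage 4 without DOX. Anxa5, Anxa2 and Anxa3 took the next 3 ranks in an order that differed between groups, and Anxa6 and Anxa4 ranks 5 and 6. Anxa2 and Anxa3 overlapped at both DOX states of passage 7, Anxa1 and Anxa2 overlapped at passage 4 with DOX, Anxa5 and Anxa3 overlapped in both groups with DOX, and Anxa6 and Anxa4 overlapped at passage 7 with DOX. Anxa7, Anxa11, Anxa8 and Anxa9 filled the last 4 ranks. Anxa8 was at rank 7 at passage 7 with DOX with 75.9 TPM, above Anxa7 with 61.5 TPM. It was at rank 9 at passage 7 without DOX with 19.9 TPM, overlapping Anxa9 there. At passage 4 it was at rank 9 with DOX with 19.0 TPM, and at rank 10 without DOX with 6.61 TPM.

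**Figure D3:**
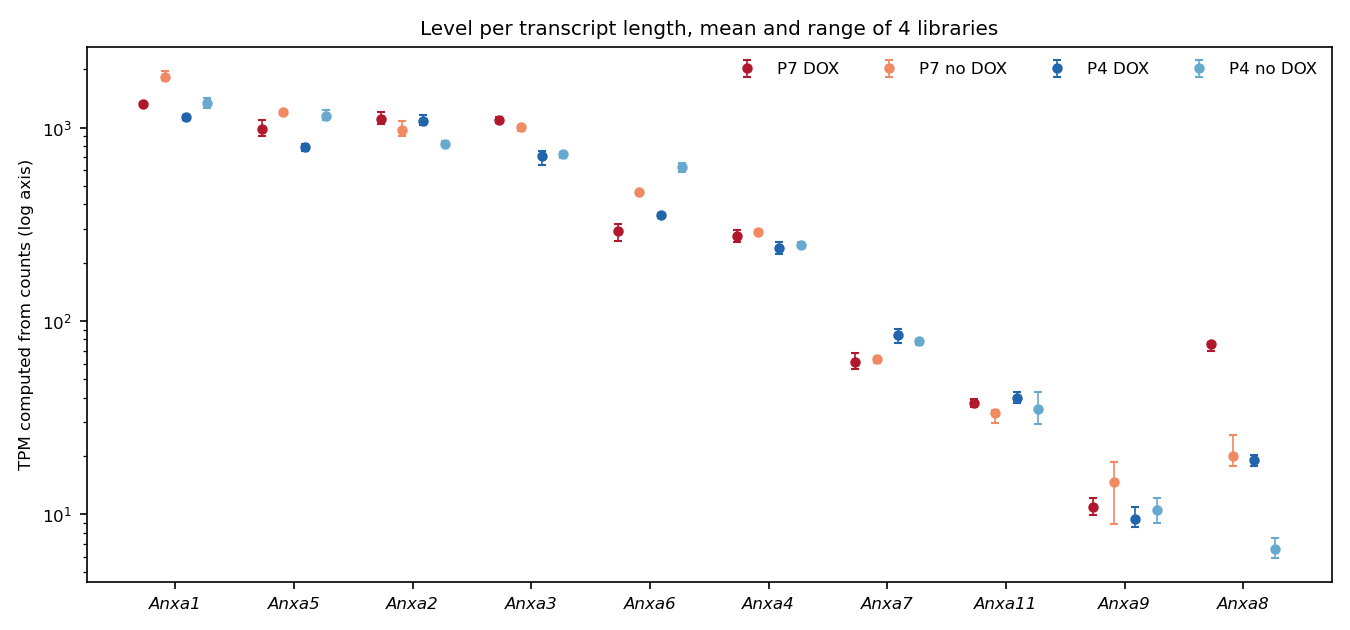
TPM computed from the counts (log axis) of the 10 annexin genes, ordered by their level at passage 4 without DOX, with a point for the mean and a bar for the range of 4 libraries. Anxa8 lies above Anxa7 at passage 7 with DOX, at 75.9 TPM, and in the last place at passage 4 without DOX, at 6.61 TPM.

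The order per length depends on the length used. With the longest transcript in place of all exons, Anxa3 was first at passage 7 with DOX and Anxa8 was at rank 8 below Anxa7. Summed over the 10 genes, annexin transcripts came to 5052 to 5590.2 TPM at passage 7 with DOX, against 5693 to 6064 TPM without DOX. At passage 4 they came to 4301 to 4579 TPM with DOX, against 5007 to 5091 TPM without. The sum of computed TPM was thus lower with DOX at both passages, without overlap. The sum of CPM overlapped at both passages, at 4923 to 5203 CPM at passage 7 with DOX, against 4992 to 5518 CPM without DOX, and at 4082 to 4481 CPM at passage 4 with DOX, against 4351 to 4452 CPM without DOX. The lower sum with DOX therefore depends on the scale used.

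Over the 16 libraries, Stbd1, Casp14, Washc5, Itgb5 and Mrps17 had the log2 CPM most like that of Anxa8, with Pearson's r of 0.975 to 0.983. This ranking covers tested genes with a proper symbol. These r values describe 16 libraries in 4 groups and mostly follow the group means. Stbd1, which encodes a glycogen-binding membrane protein, came closest in size too. It had a mean of 135 CPM at passage 7 with DOX, against 31.3 CPM without DOX, and of 38.9 CPM at passage 4 with DOX, against 11.8 CPM without DOX. Casp14, a caspase of epidermal differentiation, had 19.0 CPM at passage 7 with DOX, against 6.91 CPM without DOX, and 7.64 CPM at passage 4 with DOX, against 2.89 CPM without DOX. The other 3, which encode a WASH complex subunit, an integrin chain and a mitochondrial ribosomal protein, had log2 fold changes of 0.28 to 0.48 in all 4 comparisons. Within the family, Anxa2 (r = 0.82) and Anxa3 (r = 0.80) ran most nearly with Anxa8 and Anxa6 against it (r = -0.92). The other 6 lay between -0.50 and 0.63. Among all tested genes, these r values lay at percentile 95.2 for Anxa2, 94.4 for Anxa3 and 0.894 for Anxa6.

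In each group, replicates 3 and 4 stood apart from replicates 1 and 2, and the annexins were checked against that split. Anxa9 was 0.38 higher on the log2 scale in replicates 3 and 4, and Anxa11 was 0.22 higher, against a median absolute difference of 0.13 over all tested genes. The other 8 differed by at most 0.08 in either direction. Within each pair, Anxa8 had DOX log2 fold changes of 1.90 and 2.09 at passage 7 and of 1.44 and 1.74 at passage 4, for replicates 1 and 2 and for replicates 3 and 4 in that order. Its passage values were 1.60 in both pairs without DOX, and 2.06 and 1.94 with DOX. Anxa6 with DOX had -0.51 and -0.70 at passage 7 and -0.73 and -0.81 at passage 4. For Anxa9 at passage 7 the pairs gave -0.03 and -0.63 with DOX, and what lies behind the pairs was not tested.

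**Figure D4:**
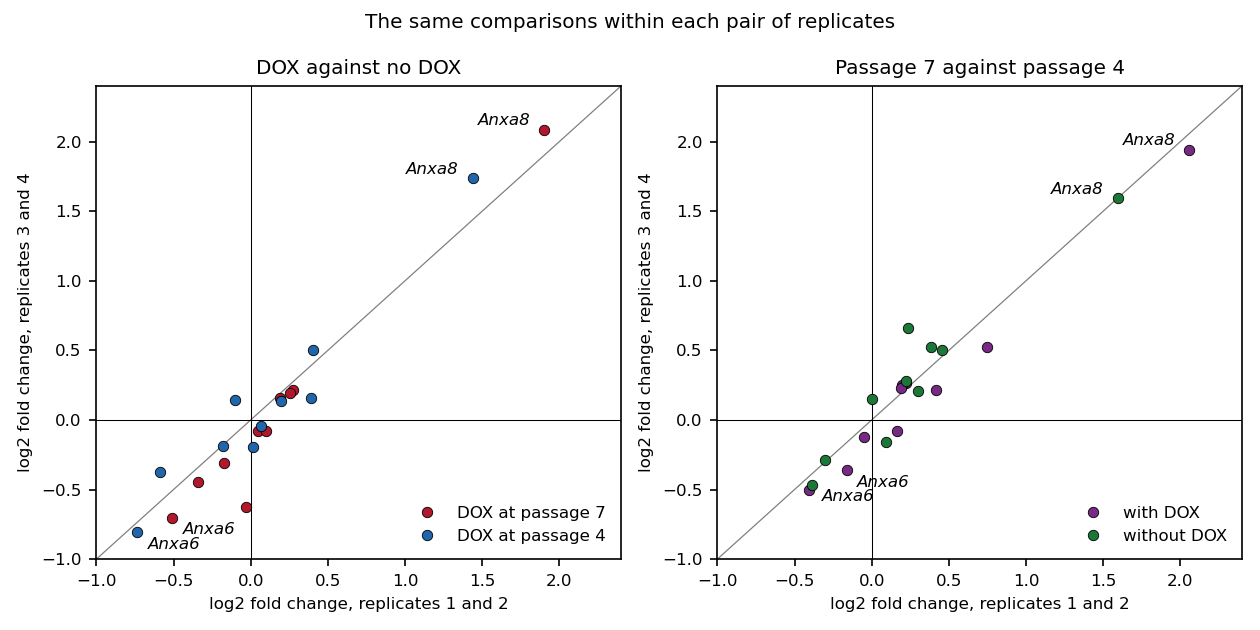
Log2 fold changes of the 10 annexin genes from replicates 1 and 2 (horizontal axis) and from replicates 3 and 4 (vertical axis), for DOX on the left and passage on the right, with the grey line marking equal values. Anxa8 lies near the line in all 4 comparisons, between 1.44 and 2.09, and Anxa6 is below 0 on both axes throughout.

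Of the annexins beyond these 10, Anxa10 had 0 or 1 counts and was not tested. Anxa13, known in dog kidney cells for apical sorting of membrane proteins, was counted 10 to 63 times per library. It fell with DOX by 2.09 at passage 7 (SE 0.26, edgeR adjusted p = 1.2e-05) and by 1.00 at passage 4 (SE 0.26, edgeR adjusted p = 0.012), although its libraries overlapped at passage 4. It rose with passage without DOX by 0.70 (SE 0.23, edgeR adjusted p = 0.03), and its value with DOX was -0.38 (SE 0.30, edgeR adjusted p = 0.354), with overlapping libraries in both DOX states.

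The binding partners and pathway genes of the annexins were counted from lists written with earlier results known. Of 9 tested binding partners, 2 rose and 1 fell with DOX at passage 7, and 3 rose and 0 fell at passage 4. Beside these counts stand the shares of all tested genes, 11.1% higher and 11.6% lower at passage 7 and 8.45% higher and 9.1% lower at passage 4. S100a10, the partner of Anxa2, was at 251, 234, 297 and 271 CPM at passage 7 with DOX, against 204, 215, 218 and 202 CPM without DOX, and rose by 0.33 (SE 0.07, edgeR adjusted p = 0.0032). At passage 4 it rose by 0.31 (SE 0.07, edgeR adjusted p = 0.0065), and every library with DOX exceeded every one without at both passages. S100a11, the partner of Anxa1, had -0.09 at each passage (SE 0.06, edgeR adjusted p = 0.347 and 0.355). Fpr1 and Fpr2, receptors for Anxa1, had too few counts to be tested.

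In the plasminogen system, which the complex of Anxa2 and S100a10 helps to activate at the cell surface, 5 of the 7 genes reported were tested. With DOX, 2 fell at passage 7 and 3 fell at passage 4, and 0 rose at either, where 11.6% of all tested genes were called lower at passage 7 and 9.1% at passage 4. Plau, the urokinase gene, fell by 1.03 at passage 7 (SE 0.07, edgeR adjusted p = 3.3e-09) and by 0.76 at passage 4 (SE 0.07, edgeR adjusted p = 1.6e-07). Plat, the tissue plasminogen activator gene, fell by 1.07 at passage 7 (SE 0.11, edgeR adjusted p = 2.3e-06) and by 0.67 at passage 4 (SE 0.11, edgeR adjusted p = 0.00032). Anxa2 and S100a10 were thus higher with DOX in the same libraries in which these activator genes were lower.

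Of 15 tested genes of membrane repair and of the ESCRT machinery that seals membranes, 1 rose and 2 fell with DOX at passage 7, and 1 rose and 3 fell at passage 4. Those few calls at passage 7 lie near the 11.1% higher and 11.6% lower of all tested genes, and at passage 4 the shares of all tested genes were 8.45% and 9.1%. Dysf, which encodes the repair protein dysferlin, a partner of annexins in muscle, fell by 0.53 at passage 7 (SE 0.08, edgeR adjusted p = 6e-05) and by 0.27 at passage 4 (SE 0.08, edgeR adjusted p = 0.022). Cav1, the caveolin gene, rose by 0.19 at passage 7 (SE 0.06, edgeR adjusted p = 0.026) and fell by 0.33 at passage 4 (SE 0.06, edgeR adjusted p = 0.0006). With passage, 1 rose and 1 fell without DOX, where 14.3% of all tested genes were called higher and 11.3% lower, and 2 rose and 2 fell with DOX, where 18.3% were called higher and 15.8% lower. Of 6 genes for endosome tethering and cholesterol, edgeR called 0 with DOX at either passage, where 0 at passage 7 and 1 at passage 4 had an unadjusted p under 0.05 and DESeq2 called 0. With passage, 1 rose and 1 fell without DOX and 1 rose and 2 fell with DOX, beside the same shares of all tested genes. Rab7, a small GTPase of late endosomes, rose by 0.19 in both DOX states (SE 0.04, edgeR adjusted p = 0.0019 without DOX and 0.0011 with DOX).

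Marker sums of several cell types differed with DOX and with passage beside the annexins, in both directions. The principal cell list of 15 markers, with Aqp2 at 0 in every library, summed to 5047 to 5597 CPM at passage 7 with DOX, against 5907 to 6351 CPM without DOX, and to 3993 to 4122 CPM at passage 4 with DOX, against 5079 to 5231 CPM without DOX. Of its 11 tested members, 1 rose and 3 fell with DOX at passage 7, and 2 rose and 2 fell at passage 4. Of all tested genes, 11.1% were called higher and 11.6% lower at passage 7, and 8.45% and 9.1% at passage 4. The keratin genes Krt8 (log2 fold changes -0.35 and -0.66 at passages 7 and 4) and Krt18 (-0.26 and -0.44) fell at both passages. Scnn1a, a subunit gene of the epithelial sodium channel, rose at both (0.35 and 0.40), and the transcription factor gene Gata3 rose at passage 4 (0.55). Other members went down. Hsd11b2 was at 5.55 to 8.10 CPM at passage 7 with DOX, against 13.25 to 17.52 CPM without DOX. The low means of Scnn1b were 0.428 against 0.737 CPM at passage 7 and 1.97 against 3.34 CPM at passage 4. Those of Scnn1g were 0.464 against 0.865 CPM and 1.08 against 2.21 CPM. With passage, 6 of the 11 rose and 2 fell without DOX, and 5 rose and 2 fell with DOX. Of all tested genes, 14.3% were called higher and 11.3% lower without DOX, and 18.3% and 15.8% with DOX.

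The list of 10 urothelial and squamous markers was nearly all Sprr1a, a cornified envelope gene. Sprr1a had a mean of 437 CPM at passage 7 with DOX, against 894 CPM without DOX, and of 642 CPM at passage 4 with DOX, against 969 CPM without DOX. Upk1a, a uroplakin gene and the only other one tested, had means of 3.29 to 5.10 CPM and no call with DOX. Without DOX the sums of this list, mostly Sprr1a, overlapped between passage 7 (889 to 924 CPM) and passage 4 (778 to 1131 CPM). Anxa8 did not overlap there, and neither did Upk1a, at 4.8 to 5.4 CPM at passage 7 against 2.4 to 4.2 CPM at passage 4. With DOX Upk1a overlapped between the passages.

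The list of 7 leukocyte markers, with Adgre1 and Itgam at 0 in every library, summed to 36.1 to 43.7 CPM at passage 7 with DOX, against 67.1 to 75.2 CPM without DOX. At passage 4 it summed to 20.1 to 35.6 CPM with DOX, against 39.0 to 46.9 CPM without DOX, so this sum was lower with DOX and higher at passage 7. Csf1r and Cd68 made up most of it, and both had higher means at passage 7 in each DOX state. Ptprc instead fell with passage, with a mean of 1.02 CPM at passage 7 without DOX, against 3.26 CPM at passage 4. With DOX the means of Ptprc were 0.063 CPM at passage 7 and 0.971 CPM at passage 4. The list of 5 fibroblast markers was low and went the other way with DOX, at 3.68 to 6.61 CPM at passage 7 with DOX, against 2.49 to 3.72 CPM without DOX. At passage 4 it summed to 1.21 to 1.88 CPM with DOX, against 0.799 to 1.26 CPM without DOX. The DOX groups thus overlapped slightly at each passage, and the passages did not. Of its 2 tested genes, Dcn had higher means with DOX, at 3.44 against 1.51 CPM at passage 7 and 0.905 against 0.317 CPM at passage 4. Col1a1 did not, at 1.03 against 1.28 CPM at passage 7 and 0.353 against 0.378 CPM at passage 4. The list of 7 intercalated cell markers was lower with passage, at 7.39 to 12.1 CPM at passage 7 without DOX, against 17.2 to 25.9 CPM at passage 4, and at 6.05 to 7.31 CPM at passage 7 with DOX, against 14.2 to 30.0 CPM at passage 4. Only 2 of the 7 were tested. Atp6v0d2 made up most of the sum, with means of 7.96 CPM at passage 7 without DOX, against 19.2 CPM at passage 4. With DOX its means were 5.75 CPM at passage 7 and 17.7 CPM at passage 4. Insrr, the other one tested, was low and also fell, from 1.45 to 0.621 CPM without DOX and from 0.901 to 0.366 CPM with DOX. The part of these marker sums in the annexin values was not tested.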

How the data were processed

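Poly(A) RNA of the 16 libraries was read in pairs of 75 bases from a strand-marking kit, and the aligner was STAR 2.6.0c on GRCm38.p6, per the labels' protocols. The authors deposited whole-number counts per Ensembl gene and a table of TPM values. The counting tool, its annotation and strand setting, and the making of the TPM are not given in the sources used here. Of 16 deposited TPM headers, 12 matched the count column of another group best, and 16 matched the column at the same position (9339 genes compared), so those TPM values were not used. All TPM printed were computed from the deposited counts and the union of exons in the GRCm38 annotation, which matched all 55536 identifiers.

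Genes were filtered by filterByExpr, scaled by TMM and fitted over all 16 libraries with 1 mean per group (12 residual degrees of freedom) by the robust quasi-likelihood fit of edgeR 4.0.16 in R 4.3.3. Benjamini-Hochberg adjustment ran over 15316 genes, with a threshold of 0.05. Calls with DOX use that rule, but no p of a listed annexin is given there. Alternatives were DESeq2 1.42.0, its size factors in edgeR, no filter, fits of only the groups compared, a replicate block, a term for the pairs of replicates, and leaving out each library. The fit was tested on simulated data.

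Libraries with the same replicate number deviated together from their group means (r 0.175 to 0.369, every one over 0.1). Libraries of the same pair of replicates but another number did so to a similar degree, with r of 0.185 to 0.387. Libraries of the other pair had r of -0.342 to -0.18. These values show a split by pair of replicates, and no pairing by number beyond it. The main fit and its p-values do not include this split. The replicate block and the term for the pairs were used only as alternatives. No replicates were duplicates, with a chi-square per degree of freedom of at least 1.82. The members and lists were chosen with earlier results of these data known. All 10 annexins are named, and up to 4 genes of a list were named by adjusted p, with further ones to show its spread. The genes most like Anxa8 are the 5 highest correlations among tested genes with a proper symbol. Gm numbers, Rik names, clone or accession names and genes of the mitochondrial genome were left out of that ranking. In the plasminogen list, 1 gene is not reported here and is left out of its counts.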

Additional observations from a re-analysis of the deposited data

Results flagged for a closer look

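No annexin library stood apart from its group in any of 44 groups of 4 examined (10 annexins and Pkd2) by Dixon's test. The result listed here concerns a gene that is no annexin and was picked out because its DOX response differed between passages by edgeR's test. For Cav1, the caveolin gene, the difference was 0.519 (SE 0.0838, edgeR adjusted p = 0.0036), from 0.19 at passage 7 and -0.33 at passage 4.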

How the results depend on the processing

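Anxa8 stayed called higher with passage in both DOX states under every alternative that gave a test, at 1.46 to 1.66 without DOX and 1.96 to 2.03 with DOX when single libraries were left out. Its DOX values, which entered the choice of genes, were then 1.92 to 2.13 at passage 7 and 1.53 to 1.65 at passage 4, given as a description. The calls of the annexins by passage stayed at 5 higher and 2 lower with DOX in every such fit, and at 5 to 6 higher and 2 lower without DOX. With the replicate block, 2031 genes were called higher and 2145 lower with DOX at passage 4 (1294 and 1393 without the block), 2660 lower by passage without DOX (1735), and 287 higher and 428 lower for the difference of responses (79 and 104). With the pair of replicates as a term these counts were 2135, 2219, 2774, 339 and 482. That term also gave 1 annexin call for the difference, Anxa5 (0.25, edgeR adjusted p = 0.042, against 0.173 without it and 0.0966 to 0.317 when single libraries were left out). The block changed the calls of Anxa11 with DOX and of Anxa9 by passage and no other annexin call. DESeq2 called 143 higher and 206 lower for the difference, and leaving out single libraries gave 44 to 95 higher and 61 to 135 lower. The cause of these shifts was not tested. Values near 0 changed sign when single libraries were left out: for the difference, Anxa11 (-0.143 to 0.0421) and Anxa4 (-0.0552 to 0.00891); for DOX at passage 7, Anxa4 (-0.0351 to 0.00892, and 0.0027 without a filter) and Anxa7 (-0.0283 to 0.0450); for DOX at passage 4, Anxa3 (-0.0122 to 0.0722) and Anxa4 (-0.0217 to 0.0424); and for passage without DOX, Anxa11 (-0.127 to 0.0574). With the longest transcript as the length, 37 levels per length moved by more than 1 SD and 3 did not, and within the pairs of replicates 26 log2 values moved and 84 did not. Depth limits Anxa9 and Anxa8 most, with as few as 67 and 44 counts.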
